A study of Mus musculus with 3 samples.

Results

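Sox9 and the stretches of the genome that flank it were examined in the distal forelimb of the mouse embryo, by taking every deposited peak of RNA polymerase II (RNAP2) and of the Mediator subunit Med12 that lay on chromosome 11 within 1 Mb of the Sox9 start (mm9, chr11:111643538-113643538). The window held 45 of the 31113 peaks of both lists. RNAP2 had 24 of its 20479 peaks there, with 15 upstream of Sox9, 1 over its start and 8 downstream. Med12 had 21 of its 10634 peaks there, with 14 upstream and 7 downstream. The chromatin came from distal forelimbs of embryos at E12.5, dissociated to single cells and fixed with formaldehyde. The sample labels and the study's methods give this stage, whereas the series' design text names an earlier day. The labels give neither a strain nor a number of embryos, and no embryo was mutant or treated according to them. The series had 3 libraries, namely RNAP2, Med12 and an input without antibody, with 1 library for each. There was therefore no replicate error for any value below and no test between samples.

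Sox9 encodes an HMG-box transcription factor that mesenchymal cells need in order to condense and become chondrocytes, and with Sox5 and Sox6 it drives the genes of the cartilage matrix. In the limb it marks the condensations that prefigure the digits. The gene lies between long stretches with few other protein-coding genes, and rearrangements or deletions far from the human gene are known to cause skeletal and craniofacial disorders. RNAP2 is the enzyme that transcribes protein-coding genes and is found at active starts and at many enhancers. Mediator bridges transcription factors and RNAP2, and Med12 belongs to its kinase module. A distal site that carries both proteins is therefore commonly taken as a candidate enhancer, although a peak alone does not show which gene a site acts on.

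Within the window, 12 sites carried both proteins, meaning that an RNAP2 peak and a Med12 peak shared at least 1 bp. Of these, 9 were distal, with no annotated transcript start within 1 kb of either peak (GENCODE vM1). There were 6 distal sites with both upstream and 3 downstream. The sequences of 4 of them are shown because they carry the highest Med12 peak on each side, at 819 kb upstream and 231 kb downstream, or share short letter motifs, at 369 kb upstream, 231 kb downstream and 367 kb downstream. Each is the 300 bp at the centre of the overlap of both peaks, read from the NCBIM37 (mm9) reference genome, 5′ to 3′. Capitals mark the letters of a searched motif on either strand.
819 kb upstream (chr11:111823154-111823453, mm9, plus strand): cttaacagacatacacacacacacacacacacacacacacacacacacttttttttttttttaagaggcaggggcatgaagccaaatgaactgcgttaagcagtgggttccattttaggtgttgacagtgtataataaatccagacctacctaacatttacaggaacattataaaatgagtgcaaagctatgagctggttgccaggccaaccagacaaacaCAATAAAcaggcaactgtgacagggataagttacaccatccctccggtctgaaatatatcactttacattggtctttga
369 kb upstream (chr11:112273794-112274093, mm9, plus strand): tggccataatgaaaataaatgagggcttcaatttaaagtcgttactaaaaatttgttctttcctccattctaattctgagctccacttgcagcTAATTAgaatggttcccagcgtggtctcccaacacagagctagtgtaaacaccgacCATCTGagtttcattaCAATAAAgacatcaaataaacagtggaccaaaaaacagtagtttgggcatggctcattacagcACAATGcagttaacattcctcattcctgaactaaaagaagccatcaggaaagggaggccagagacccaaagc
231 kb downstream (chr11:112875653-112875952, mm9, plus strand): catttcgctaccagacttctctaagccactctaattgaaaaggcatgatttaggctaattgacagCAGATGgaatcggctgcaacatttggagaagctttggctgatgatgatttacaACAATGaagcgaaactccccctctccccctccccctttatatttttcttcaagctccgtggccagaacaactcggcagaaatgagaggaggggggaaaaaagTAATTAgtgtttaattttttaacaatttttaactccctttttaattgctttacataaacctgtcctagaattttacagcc
367 kb downstream (chr11:113010556-113010855, mm9, plus strand): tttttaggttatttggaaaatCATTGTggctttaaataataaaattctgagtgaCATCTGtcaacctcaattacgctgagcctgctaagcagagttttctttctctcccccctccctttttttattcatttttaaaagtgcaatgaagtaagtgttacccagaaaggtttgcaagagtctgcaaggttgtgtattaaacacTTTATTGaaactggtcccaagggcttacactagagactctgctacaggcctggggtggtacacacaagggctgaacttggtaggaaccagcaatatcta

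The searched motifs, on both strands, were ACAAAG and ACAATG for Sox factors, CAATAAA for posterior Hox factors, CTTTGAT for Tcf/Lef factors, GACCACCCA for Gli factors, TAATTA for homeodomain factors, TGACTCA for AP-1, and CAGATG and CATATG for bHLH factors. ACAATG was found in 3 of the 9 sites, at 369 kb upstream, 231 kb downstream and 367 kb downstream, against 14.6% of the 2646 distal sites with both proteins in the genome. The same 3 sites held CAGATG, which was present in 28.8% of all distal sites with both. ACAATG and CAGATG stood together in 4.08% of those 2646 sites, a pair picked out after its matches had been seen. CAATAAA was found in 3 sites, at 819 and 369 kb upstream and 367 kb downstream, against 16.0% genome-wide. TAATTA was found in 2 sites, at 369 kb upstream and 231 kb downstream, against 15.9%. ACAAAG matched only the site 953 kb upstream, against 23.9% of all such sites, and CTTTGAT only the site 606 kb upstream, against 6.05%. GACCACCCA, TGACTCA and CATATG had no match in these 9 windows and were found in 0.151%, 4.54% and 10.2% of all distal sites with both. The sites 556 and 258 kb upstream and 944 kb downstream held none of the motifs. No matches overlapped one another. With 9 sites these counts describe sequence and single out no factor. The G and C content of the 9 windows ran from 35.3% to 53.7% with a median of 40.7%, and the median over all 2646 sites was 43.0%, with quartiles of 38.7% and 48.0%.

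The Sox9 gene (ENSMUSG00000000567.4) occupies chr11:112643538-112649074 on the plus strand and has 3 exons. A single RNAP2 peak, chr11:112642502-112649909, lay over all of it. The peak began 1036 bp before the start and ended 835 bp beyond the end of the gene, so that it was 7408 bp wide against a median of 1328 bp over the RNAP2 list. Only 0.391% of RNAP2 peaks were wider. Its score, which is the negative log10 of the peak caller's p-value times 10 and rises with both enrichment and read number, was 2378.74 against a list median of 123, and ranked 559 of 20479. Of 8212 protein-coding genes of at least 5 kb with an RNAP2 peak at a start, 12 were covered end to end by 1 RNAP2 peak, or 0.146%, and Sox9 was among them. At 5537 bp, Sox9 is close to that minimum length, and longer genes are harder to cover whole. The share therefore depends on gene length, and none was computed for genes as short as Sox9. The peak also covered the start of the nearest transcript of BC006965, a long intergenic noncoding RNA on the other strand that begins 248 bp from the Sox9 start, so the share of the peak that belongs to each direction cannot be told apart.

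No Med12 peak lay within 1 kb of the Sox9 start. The nearest, chr11:112647868-112648962, began 4330 bp downstream and was 1095 bp wide, with a score of 58.72 that was close to the Med12 list median of 56.8 and ranked 4974 of 10634. All 1095 bp fell in the last exon, beyond the last coding base at 112646821, and the peak ended 112 bp before the end of the gene. The map of the gene places the Med12 peak inside the RNAP2 peak but over the 3′ untranslated end rather than the promoter. Across the genome, 42.2% of 22367 protein-coding genes had an RNAP2 peak within 1 kb of a start, 9.37% had a Med12 peak and 8.66% had both.

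**Figure D1:**
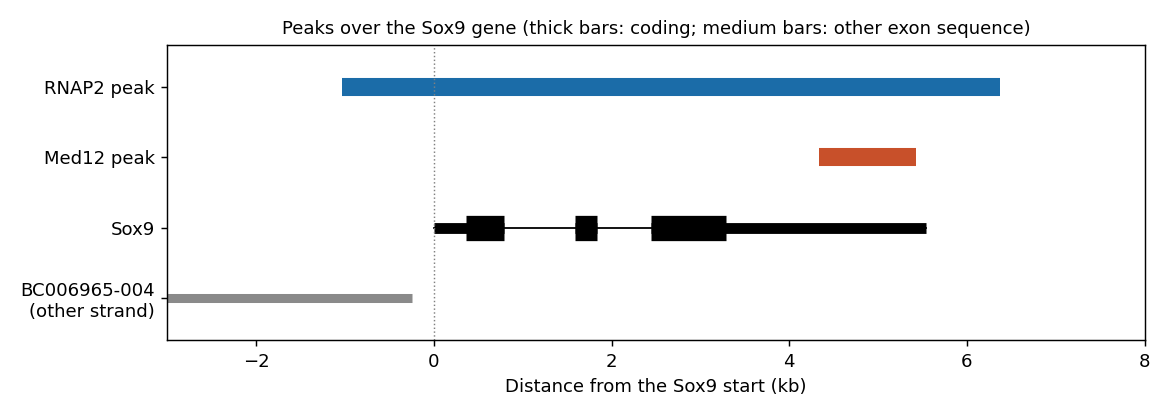
Extent of the RNAP2 and Med12 peaks over Sox9, with distance from the Sox9 start in kb on the horizontal axis. Coding exon sequence is drawn thickest and the BC006965 transcript on the other strand is grey. The RNAP2 peak runs from 1036 bp before the start to 835 bp past the gene, and the Med12 peak starts 4330 bp downstream of the start, in the noncoding end of the last exon.

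Upstream of Sox9, the first distal site with both proteins was 258 kb from the start, at chr11:112384582-112385817, with an RNAP2 score of 148.38 and a Med12 score of 76.68. The next, at 369 kb (chr11:112273379-112274489), had scores of 81.03 for RNAP2 and 77.56 for Med12, and is the site whose sequence held 4 motif matches. At 556 kb (chr11:112086053-112087168), the RNAP2 score was the lowest of the 9 sites, 67.98, whereas Med12 reached 112.73. These 3 sites lay in intergenic sequence with Med12 ranks of 3077, 3011 and 1594 of 10634.

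Farther upstream the scores were higher for both proteins. The site at 606 kb (chr11:112035867-112037599) had an RNAP2 score of 212.28 and a Med12 score of 125.05. The site at 819 kb (chr11:111822312-111824203) had the highest Med12 score of the window, 291.05, ranked 280 of 10634, with an RNAP2 score of 216.68 ranked 7334 of 20479. The last, at 953 kb (chr11:111689391-111690549), had scores of 159.69 for RNAP2 and 199.22 for Med12. All 3 were intergenic. The Med12 peaks at 819 and 953 kb, ranked 280 and 577, stood higher in their list than every other upstream Med12 peak of the window. Neighbouring upstream sites were separated by 48.5 to 212 kb, with a median of 132 kb.

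Downstream, the first site with both was 231 kb from the start, at chr11:112874987-112876501, in intergenic sequence. Its RNAP2 score was 150.55 and its Med12 score 192.99, ranked 617 of 10634, which made it the highest Med12 peak on that side. The site at 367 kb (chr11:113010142-113011266) lay in an intron of the long intergenic noncoding RNA 2610035D17Rik and scored 90.23 for RNAP2 and 82.73 for Med12. The third, at 944 kb (chr11:113587865-113589855), overlapped the 3′ end of Cdc42ep4, a gene for an effector of the small GTPase Cdc42, and combined the highest distal RNAP2 score, 222.69, with the lowest Med12 score of the 9, 42.7. It therefore lay beyond the gene-poor stretch, and 8 of the 9 sites were within it. Peaks of both lists scored at least 100 at 4 sites, those at 953, 819 and 606 kb upstream and at 231 kb downstream.

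**Figure D2:**
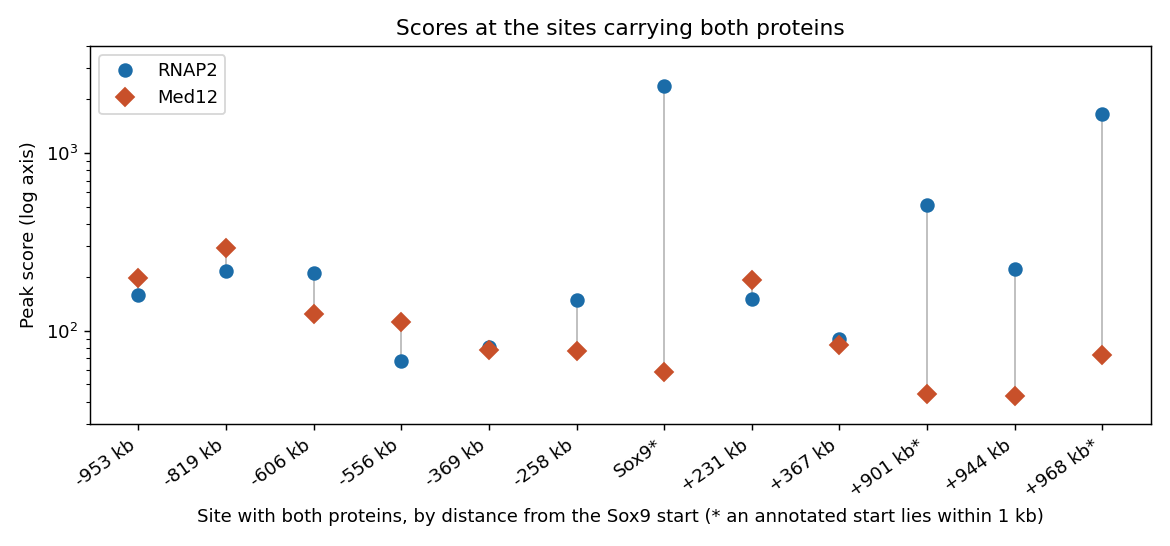
Peak scores of RNAP2 (circles) and Med12 (diamonds) on a log axis at the 12 sites with both proteins, ordered by distance from the Sox9 start (negative is upstream); an asterisk marks an annotated start within 1 kb. The RNAP2 score was highest at Sox9, 2378.74, whereas the Med12 score was highest 819 kb upstream, 291.05. Scores of different lists are not on a common scale.

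The 3 other sites with both lay at annotated starts. Besides Sox9, these were the shared start region of D11Wsu47e and D11Wsu99e at 901 kb downstream, with scores of 510.74 for RNAP2 and 44.35 for Med12, and the start of Cdc42ep4 at 968 kb downstream, with scores of 1648.79 and 73.12. At all 3 the RNAP2 score exceeded that of every distal RNAP2 peak of the window, and the Med12 score lay below 100.

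Peaks of 1 protein alone made up the rest of the distal sites. Of the 19 distal RNAP2 peaks, 10 had no Med12 peak over them, and their median score was 64.1 against 151 for the 9 that did. The corresponding medians over the genome were 66.5 and 137. The highest RNAP2 peak alone scored 160.61 and lay 542 kb upstream (chr11:112099842-112101213), with the nearest Med12 peak 12754 bp away. Of the 19 distal Med12 peaks, 9 had no RNAP2 peak over them, with a median score of 62.2 against 97.7 for the others. Genome-wide these medians were 50.1 and 87.8. Thus the scores of overlapping and lone peaks around Sox9 differed in the same direction as in the whole lists.

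The highest Med12 peak alone lay 226 kb upstream (chr11:112416452-112417070) and scored 81.62. The Med12 peak nearest to Sox9 on the upstream side, 133 kb away, was also alone and scored 79.52, and the nearest upstream RNAP2 peak, 183 kb away (chr11:112459542-112460984), was alone with a score of 77.65. On the downstream side, an RNAP2 peak at 339 kb (chr11:112982123-112984189, score 94.65) and a Med12 peak at 341 kb (chr11:112984927-112985391, score 62.19) were 738 bp apart in 2610035D17Rik and were not counted as a shared site. Of the distal Med12 peaks, the lowest, 322 kb upstream with a score of 40.93, had 21.7% of its bases in sequence that aligns elsewhere in the genome at 95% identity or more. For all other distal peaks of the window this share was 0. The search began no alignment in low-complexity sequence and kept none under 95% identity, so a share of 0 does not mean free of repeats.

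Distal Med12 peaks of the window were overlapped by RNAP2 in 10 of 19 cases, or 52.6% (95% Wilson interval 31.7 to 72.7), against 32.5% of 8567 genome-wide. Without the Med12 peak inside Sox9 the share was 9 of 18, or 50.0% (29.0 to 71.0). The genome-wide share lay inside both intervals. Distal RNAP2 peaks were overlapped by Med12 in 9 of 19 cases, 47.4% (27.3 to 68.3), against 25.0% of 10692 genome-wide, which lay just outside the interval. On the upstream side 6 of 14 Med12 peaks and 6 of 15 RNAP2 peaks were shared, and on the downstream side 4 of 5 and 3 of 4. The downstream Med12 count included the peak inside Sox9, whose overlapping RNAP2 peak lay at an annotated start. With so few peaks downstream, the intervals of 37.6 to 96.4% for Med12 and 30.1 to 95.4% for RNAP2 overlapped those upstream, 21.4 to 67.4% and 19.8 to 64.3%. The intervals cover counting error alone, and neighbouring peaks are not independent.

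The peaks were spread unevenly along the window. In the 250 kb just upstream of Sox9 there were 2 distal RNAP2 peaks and 2 distal Med12 peaks and no site with both. In each of the next 3 bands of 250 kb upstream there were 2 sites with both, and going outward these bands held 4, 5 and 4 distal RNAP2 peaks and 4, 2 and 6 distal Med12 peaks. Downstream, the first and second bands each held 1 site with both, the third held no distal peak at all, and the last held 1 site with both.

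Long stretches had no peak of either list. The 132 kb just upstream of the RNAP2 peak over Sox9, and the 225 kb just downstream of it (chr11:112649910-112874986), were empty, so that Sox9 stood alone between the Med12 peak 133 kb upstream and the site 231 kb downstream. For RNAP2 alone the empty stretch upstream was 182 kb. The longest empty stretch was 447 kb (chr11:113063729-113510415), and 90.5% of it lay within Slc39a11, a gene for a zinc transporter whose 3′ end is 463 kb downstream of Sox9. A further 153 kb, between 790 and 636 kb upstream, was also empty. In the map of peaks across the window the stretches of 132 and 225 kb bracket Sox9.

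**Figure D3:**
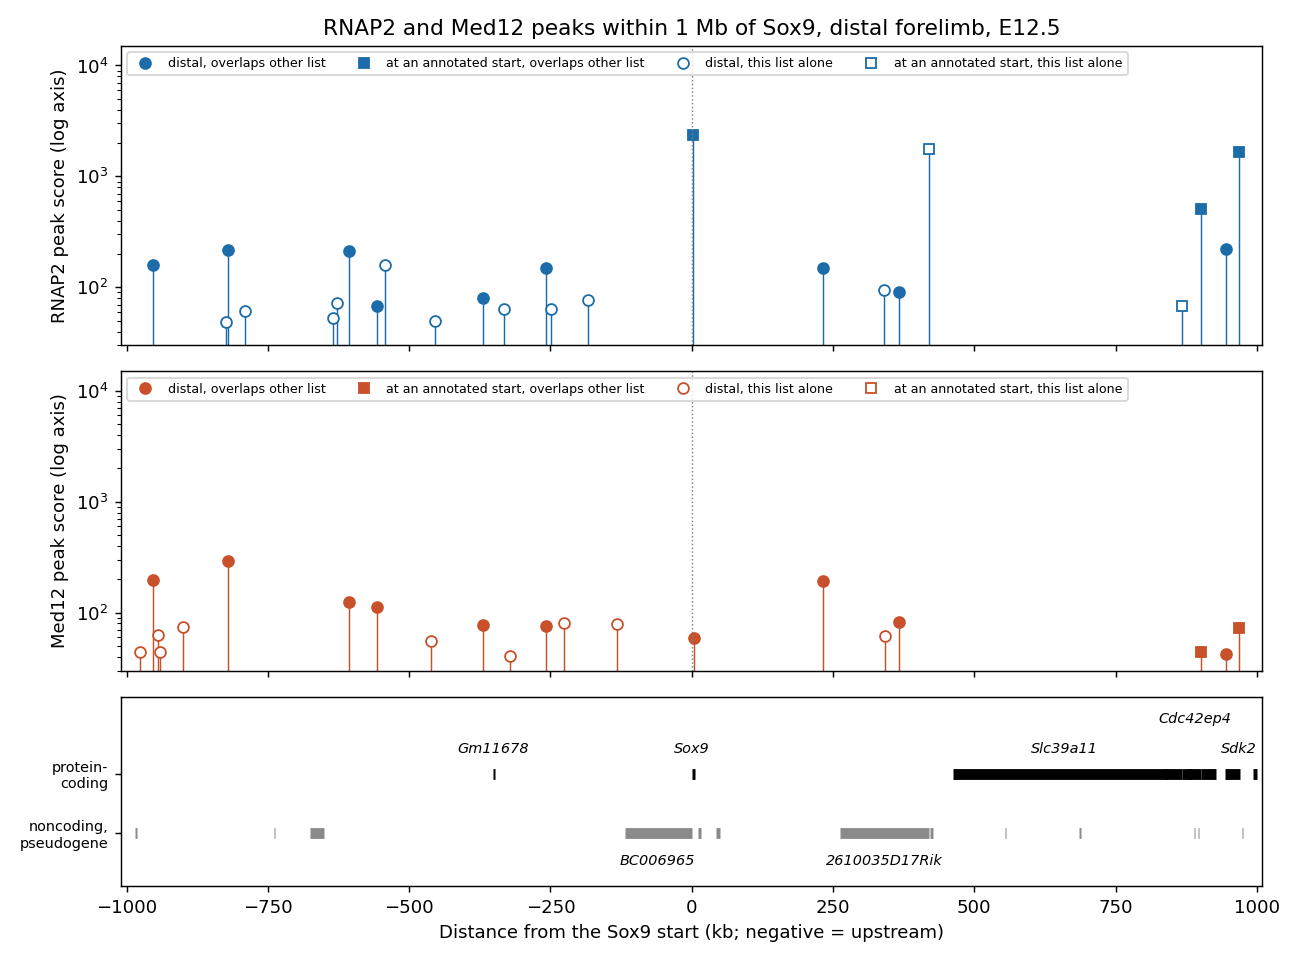
RNAP2 peaks (top), Med12 peaks (middle) and annotated genes (bottom) by distance from the Sox9 start in kb, negative upstream; peak scores are on log axes. Filled symbols overlap a peak of the other list and squares lie within 1 kb of an annotated start. Of the 9 distal sites with both, 6 lie upstream, and no peak lies in the 225 kb downstream of the RNAP2 peak over Sox9.

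Annotated genes with a start in the window numbered 22. Among the 9 protein-coding genes, Sox9 included, 6 had RNAP2 within 1 kb of a start, and 3 of these also had Med12, against 42.2% and 8.66% of all protein-coding genes. Those with both were D11Wsu47e and D11Wsu99e, whose shared start region held 1 peak of each list, and Cdc42ep4. Genes that share a peak are not independent counts. Cog1, which encodes a subunit of a Golgi complex, and Slc39a11 shared an RNAP2 peak with a score of 68.16 and had no Med12. No peak lay at a start of Sstr2, a somatostatin receptor gene, of Cpsf4l or of Gm11678, a short coding model 351 kb upstream. These 3 of 9 genes were the only protein-coding genes of the window without RNAP2 at a start.

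Of the 7 long noncoding genes, 2 had RNAP2 at a start and none had Med12. The share over all noncoding genes was not computed, so these counts describe the window only. One was BC006965, through the start inside the Sox9 peak, while its other annotated starts lay in the empty stretch upstream. The other was 2610035D17Rik, whose RNAP2 peak (chr11:113062497-113063728) scored 1761.29, ranked 934 of 20479, second in the window to Sox9. It lay 419 kb downstream, and the nearest Med12 peak was 51231 bp from it. No peak was found at the 4 pseudogenes or at the 2 microRNA genes.

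Against windows of the same size around the other 22366 protein-coding genes, the Sox9 window was near the median in RNAP2 peaks and in the upper tail in Med12 peaks. It had 24 RNAP2 peaks against a median of 21.0, and 44.0% of windows had as many or more. It had 21 Med12 peaks against a median of 8.00, and 2.49% had as many or more. With 9 distal sites with both, where the median was 1.00 and the highest number 27, it was equalled or exceeded by 421 windows, or 1.88%. This share was 5.16% with 500 kb on each side and 3.21% when peaks scoring under 100 were left out. Windows of neighbouring genes share peaks, so these are positions in a distribution and not tests. Among 427 other genes with no protein-coding start within 400 kb, genes named Gm and a number left out, 10.8% had as many RNAP2 peaks, 3.75% as many Med12 peaks and 3.75% as many distal sites with both. Where Gm genes counted as neighbours, which leaves Sox9 itself out of the set, these shares were 10.9%, 4.40% and 4.40% of 386 genes.

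**Figure D4:**
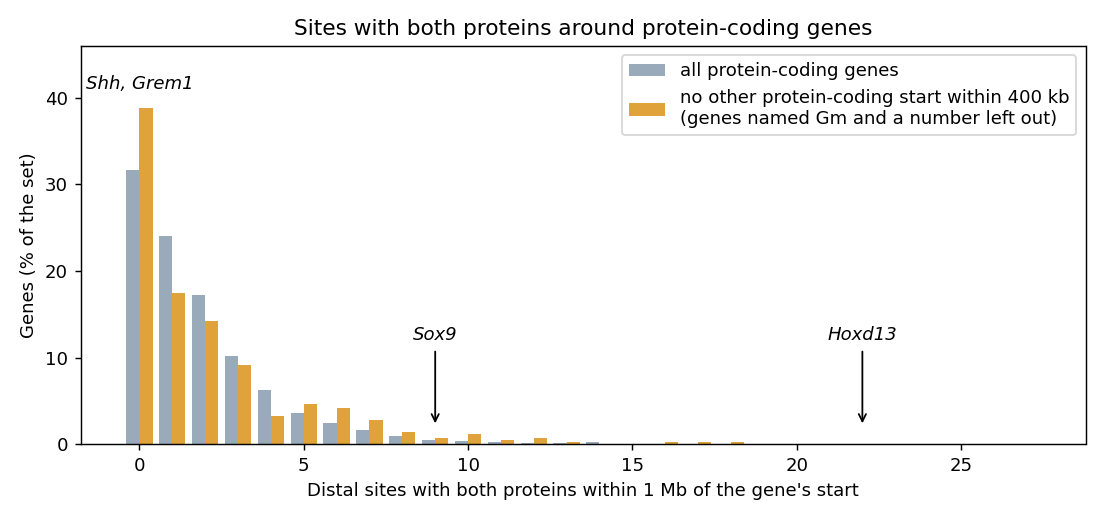
Number of distal sites with both proteins within 1 Mb of a gene's start (horizontal axis) against the percentage of genes with that number (vertical axis), for all protein-coding genes and for isolated ones. Sox9 with 9 sites lies in the upper tail of both sets. Hoxd13 with 22 lies farther out in the tail of all protein-coding genes, and Shh and Grem1 have 0.

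Other limb genes with known long-range regulation had different numbers. The window of Hoxd13, a homeobox gene of the digits, held 78 RNAP2 and 92 Med12 peaks and 22 distal sites with both, 14 upstream and 8 downstream. There, 26 of 86 distal Med12 peaks were overlapped by RNAP2, or 30.2% (95% Wilson interval 21.5 to 40.6), an interval that overlapped that of Sox9. The window of Shh, the signal of the posterior limb margin, held 11 RNAP2 and 6 Med12 peaks, and that of Grem1, a BMP antagonist, held 4 and 8. Neither had a distal site with both, although with 4 and 6 distal Med12 peaks the Wilson limits reach 49.0% and 39.0%. Protein-coding genes with a start in these windows numbered 8 besides Sox9, against 16 for Hoxd13, 13 for Shh and 11 for Grem1.

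The genes that work with or under Sox9 were examined at their starts. Of its relatives, Sox5 and Sox6, the partner factors in chondrocytes, had RNAP2 peaks with scores of 499.18 and 632.24, and Sox6 also had a Med12 peak with a score of 70.15. Sox8 and Sox10, which are of the same subgroup as Sox9, had neither. Among 12 genes of the cartilage matrix, 6 had RNAP2 at a start. These were the fibrillar collagens Col2a1, with 2171.51, and Col11a1, with 230.46, the type IX collagen genes Col9a1, Col9a2 and Col9a3, with 993.42, 304.43 and 1236.14, and the link protein gene Hapln1, with 106.77. Only Col9a1 of the 12 had Med12, with a score of 177.32, beside 9.37% of all protein-coding genes with Med12 at a start. The aggrecan gene Acan, Col11a2, Comp and the matrilin genes Matn1, Matn3 and Matn4 had neither. The share of 6 of 12 is near the 42.2% of all protein-coding genes, and neither count is a result about cartilage genes.

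Among 9 other factors of skeletal condensations, 8 had RNAP2 at a start and 2 had Med12, against 42.2% and 9.37% of all protein-coding genes. Sox4 and Sox11 had the score of 3100, which 311 RNAP2 peaks share, and both had Med12, with 84.49 and 165.01. Trps1, Scx, Nkx3-2, Runx3, Sox12 and Runx2, a factor of osteoblasts, had RNAP2 scores of 429.35, 351.15, 255.65, 241.36, 231.42 and 177.19, and no Med12. Pax1, a factor of the vertebral column, had neither. Of 6 genes around the deserts, 3 had RNAP2 at a start and none had Med12, against 42.2% and 9.37% of all protein-coding genes. The RNAP2 count is near that share and is not a result about these genes. Slc39a11 and Cog1 shared an RNAP2 peak and are not independent counts. Kcnj2, the potassium channel gene on the upstream side, scored 365.61 for RNAP2, whereas Kcnj16 and Map2k6 farther upstream had no peak at a start. In 25 genes of the first 3 lists together, 16 had RNAP2 and 4 had Med12, to be read against the same genome-wide shares.

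Markers of the tissue were checked in the same way. All 6 markers of distal limb mesenchyme, Hoxa13, Hoxd13, Prrx1, Msx1, Twist1 and Lhx9, had RNAP2 at a start, with scores of at least 1725.83. None of 5 ectoderm and none of 5 blood markers had it. Of 5 markers each of muscle and endothelium, 1 had it, namely Pax3 with 283.38 and Kdr with 148.26. These counts, over short lists, are to be read against the 42.2% of all protein-coding genes with RNAP2 within 1 kb of a start. Sox9 is itself expressed by several cell types, and the cells behind the Sox9 peaks were not identified. In a whole tissue, a site used strongly in few cells and weakly in many cannot be told apart.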

How the data were processed

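Chromatin immunoprecipitation and sequencing was performed by the authors on distal forelimbs at E12.5. Reads were mapped to mm9 with Bowtie and peaks called with MACS 1.4.1 per the labels and the study's methods. The deposited peak lists give position and a score, the negative log10 of the MACS p-value times 10, with a minimum of 40.00. The lists hold no read counts, so the number of reads behind a peak is unknown. The study's methods report fewer non-redundant mapped reads for the Med12 library than for the RNAP2 library. No peak list of the input was used here, and the labels do not state whether it served as the MACS control.

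Peaks overlapping the window by at least 1 bp were taken. Starts came from all GENCODE vM1 transcripts. Genes with the same name were joined. Distances run from the nearest edge of a peak or, for a site, of its joined peaks. Overlap code was tested on simulated peaks. Shares carry 95% Wilson intervals. Repeated sequence was found with blastn 2.17.0, in alignments of at least 50 bp. Python 3.11.15, numpy 2.4.6, scipy 1.17.1 and matplotlib 3.10.9 were used. Sites named were the Sox9 start, every distal site with both, the highest and the nearest peaks of each list and peaks at annotated starts. Genes named came from lists of Sox, cartilage, condensation, neighbouring and marker genes. One marker list is not reported here. The members and lists were chosen with earlier results of these data known. Alternatives changed the score minimum, overlap, window, promoter interval and motif window.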

Additional observations from a re-analysis of the deposited data

How the results depend on the processing

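Of 97 recomputed values of 28 results, 65 stayed within the set limits and 32 moved. Whether a direction reversed was not scored. With a score of at least 100, the window held 11 RNAP2 peaks (5 upstream, 5 downstream), 5 Med12 peaks (4 upstream, 1 downstream) and 4 distal sites with both (3 upstream, 1 downstream). The share of distal Med12 peaks overlapped by RNAP2 became 80.0% in the window and 67.1% genome-wide, and that of RNAP2 peaks 23.9% genome-wide. As many distal sites with both were then found in 3.21% of other windows, and 2 listed genes had Med12. With a score of at least 50, the genome-wide shares were 42.3% and 25.9%. With 500 kb on each side there were 11 RNAP2 peaks (6 upstream, 4 downstream), 10 Med12 peaks (6 upstream, 4 downstream) and 4 distal sites with both, 2 of them upstream, as many as in 5.16% of other windows. Allowing gaps of 500 bp gave genome-wide shares of 33.5% and 25.9%, and a promoter interval of 5 kb gave 27.0% for RNAP2. Within 5 kb, 1 Med12 peak lay at the Sox9 start. In windows of 600 bp, ACAAAG was found in 2 sites, TGACTCA in 1 and CAGATG in 6. Of all distal sites with both, 42.8%, 8.96% and 45.2% held these motifs in windows of that size. The cause of the moves was not tested, beyond the fewer peaks or wider windows of each setting. The setting without genes named Gm and a number was chosen after seeing the data.

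No paired analysis was possible because neither protein was profiled more than once. The spread between embryos or libraries is unknown, and a missing peak shows only that none passed the threshold at these depths.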

Other observations

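The desert upstream of Sox9 continues past the window, since the end of Kcnj2 is 1705 kb from the Sox9 start. In the 705 kb between Kcnj2 and the window there were 4 RNAP2 peaks, 4 Med12 peaks and 2 further distal sites with both. The peaks just outside the window on that side were a Med12 peak 95336 bp beyond it, with a score of 116.95, and an RNAP2 peak 89759 bp beyond it, with a score of 44.68. Just inside lay the Med12 peak 976 kb upstream, with a score of 43.87. On the other side, an RNAP2 peak (score 176.58) and a Med12 peak (score 141.49) overlapped 3063 and 3178 bp beyond the window, within Sdk2, a gene for a cell adhesion protein. A slightly larger window would have counted that pair.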
